A study of Mus musculus with 12 samples.

Results

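Glandular kallikrein genes of the mouse, Klk1, Klk1b21, Klk1b22, Klk1b24, Klk1b26 and Klk1b27, 6 in number, were followed across RNA sequencing libraries of spermatocytes from mice labelled as knockouts of prohibitin (Phb), of a spermatocyte line with Phb knocked down, and of their controls. They were taken by gene symbol, as the rows of the deposited tables that carry one of these names. All 6 had 1 row each among the 36823 named rows of the spermatocyte tables, and 2 of 6 (Klk1 and Klk1b24) had a row among the 24711 named rows of the GC2 tables. The 6 were picked with their spermatocyte values known, so the values in that contrast are a description and carry no test.

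The study has 12 libraries in 4 groups of 3. GC2 cells, a cultured mouse spermatocyte line obtained from ATCC, were either control or PHB knockdown. Primary spermatocytes came from control mice or from mice labelled Phb knock-out, which the design text calls conditional, and were sorted by flow cytometry after enzymatic digestion of the testis and staining with a Hoechst dye. Not given in the sources used here are the means of knockdown, the Cre driver, the strain and the age of the mice. Each group is described as 3 biological replicates, but no culture or animal is named for a library, so p-values measure only how far these samples lie apart, and that spread may be technical.

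Tissue kallikreins are secreted serine proteases that are made as inactive precursors. Klk1, the true tissue kallikrein, cuts kininogen to release the vasoactive kinin peptides. The Klk1b genes are rodent duplicates of it, best known in the mouse from the submandibular gland, where their products process growth factors and prorenin. In the mouse testis the interstitial Leydig cells, which make testosterone, are the described site of several of these proteases, including the products of Klk1b21, Klk1b24 and Klk1b27.

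The genes lie in 1 cluster on chromosome 7. From the start of Klk1b26 to the end of Klk1, at chr7:44012168-44229618 in GRCm38, the annotation (GENCODE M21) holds 28 genes in 217.5 kb. Of these, 16 are kallikrein genes or pseudogenes, all on the plus strand, and 10 of the 16 are protein-coding. Klk1b26 (ENSMUSG00000053719.10) is at chr7:44012168-44016968, Klk1b27 (ENSMUSG00000063177.6) at chr7:44052290-44056712 and Klk1b21 (ENSMUSG00000066516.5) at chr7:44102328-44106583. Klk1b22 (ENSMUSG00000060177.6) is at chr7:44112673-44116922, Klk1b24 (ENSMUSG00000063713.7) at chr7:44188236-44192455 and Klk1 (ENSMUSG00000063903.5) at chr7:44225360-44229618.

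Sequence around the RefSeq start of the genes is shown because the 3 members with the highest levels in the knockout libraries, Klk1b21, Klk1b24 and Klk1b27, shared more of it than the other members did. The stretches below are 150 bases of the plus strand of GRCm38.p6, from the RefSeq promoter table, and each ends at or before the RefSeq start of its gene, at the shared bases gagaatgag. Capitals mark the 8 of 153 alignment columns in which Klk1b21, Klk1b24 and Klk1b27 share a base that no other member has. The stretches are at chr7:44102143-44102292 for Klk1b21, chr7:44188052-44188201 for Klk1b24 and chr7:44052119-44052268 for Klk1b27. That of Klk1b22 is at chr7:44112479-44112628.
Klk1b21: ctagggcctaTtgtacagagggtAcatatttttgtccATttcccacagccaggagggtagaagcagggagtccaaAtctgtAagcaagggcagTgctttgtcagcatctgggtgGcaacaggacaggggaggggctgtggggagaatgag
Klk1b24: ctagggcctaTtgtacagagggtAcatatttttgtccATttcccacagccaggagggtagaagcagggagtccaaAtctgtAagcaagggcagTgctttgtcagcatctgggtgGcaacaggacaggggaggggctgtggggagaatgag
Klk1b27: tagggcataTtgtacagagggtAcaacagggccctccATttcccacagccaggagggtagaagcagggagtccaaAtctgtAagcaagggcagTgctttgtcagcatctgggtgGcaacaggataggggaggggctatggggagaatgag
Klk1b22: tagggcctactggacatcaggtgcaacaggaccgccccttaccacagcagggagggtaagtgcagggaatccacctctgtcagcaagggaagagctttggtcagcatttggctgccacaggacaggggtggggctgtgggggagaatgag
The stretches of Klk1b21 and Klk1b24 were identical over all 150 bases, although the genes lie apart with Klk1b22 between them. Klk1b27 matched both at 92.05% of the aligned columns. Klk1b22 matched the 3 at 76.47% to 78.29%. The corresponding stretches of Klk1b26 and Klk1 are not printed. That of Klk1b26 lies before its RefSeq start but inside the first exon of GENCODE, whose Klk1b26 begins further upstream, and it matched the 3 at 82.12% to 84.77%. That of Klk1 runs 46 bases past the annotated start and matched the 3 at 74.51% to 78.29%. Each of the 3 was thus closer to the other two than to any of the remaining members.

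The longest run of bases common to Klk1b21, Klk1b24 and Klk1b27 was 89 bases long.
shared run: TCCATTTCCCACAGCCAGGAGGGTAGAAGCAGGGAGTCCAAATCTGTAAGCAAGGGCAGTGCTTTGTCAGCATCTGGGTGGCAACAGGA
It was found in 3 of the 32851 promoter entries of 300 bases (0.00913%), which were these 3 genes, and in 3 of the 14 entries of the Klk1 subfamily. The run was defined as common to these 3 genes, so its presence in them was built in, and nothing is read from these counts. This search was chosen after the expression values had been seen. Short motifs known from steroidogenic and androgen-regulated promoters, and an A/T box, were then searched on both strands of the entries, and each match is a description only. The NR5A1 core site AAGGTCA was present in Klk1 and Klk1b21, against 4.72% of all entries. The androgen receptor core site TGTTCT was present in Klk1b24, against 19% of all, and is contained in the full androgen response element. The full element, a pair of such sites facing each other, was in no member and in 0.00913% of entries, and the cyclic AMP element TGACGTCA in no member and 1.79%. The box TTTAAA was in 5 of the 6 members, all but Klk1, and in 13 of the 14 subfamily entries, against 13.2% of all.

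**Figure D1:**
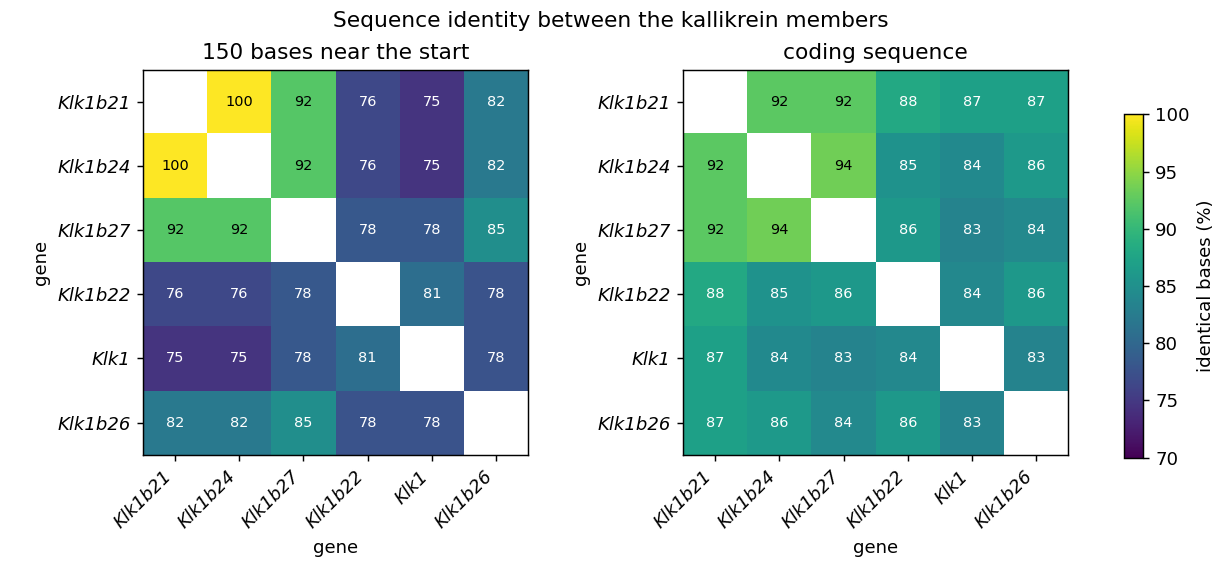
Percentage of identical aligned bases for each pair of the 6 genes, in the 150-base stretches near the RefSeq start (left, with those of Klk1b26 and Klk1 reaching into annotated transcript) and in the coding sequence (right). Klk1b21, Klk1b24 and Klk1b27 form the block of highest values in both panels, and identity near the start ranges more widely (74.51% up to complete identity) than in the coding sequence (83.4% to 93.54%).

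The coding sequences were alike enough that reads can fall on more than 1 gene. Each has 5 coding exons and 777 to 789 coding bases, and pairs of members shared 83.4% to 93.54% of aligned bases, with Klk1b24 and Klk1b27 the closest. Over the whole subfamily of 14 genes, the nearest relative of Klk1 was Klk1b5 (95.15%) and that of Klk1b26 was Klk1b16 (92.72%), neither a member. The 60 coding bases in which the members differ most, all in the last coding exon, are shown to make plain what tells the genes apart, with capitals where a gene differs from Klk1b21. In GRCm38, plus strand, they are at chr7:44106433-44106492 for Klk1b21, chr7:44192305-44192364 for Klk1b24 and chr7:44056565-44056624 for Klk1b27, at chr7:44116775-44116834 for Klk1b22, chr7:44229468-44229527 for Klk1 and chr7:44016819-44016878 for Klk1b26.
Klk1b21: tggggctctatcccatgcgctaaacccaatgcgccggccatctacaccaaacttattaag
Klk1b24: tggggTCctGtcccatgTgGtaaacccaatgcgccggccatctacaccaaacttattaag
Klk1b27: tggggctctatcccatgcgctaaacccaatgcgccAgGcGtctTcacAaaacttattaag
Klk1b22: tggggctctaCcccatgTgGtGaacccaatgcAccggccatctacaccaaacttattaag
Klk1: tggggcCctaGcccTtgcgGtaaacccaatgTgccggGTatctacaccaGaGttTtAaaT
Klk1b26: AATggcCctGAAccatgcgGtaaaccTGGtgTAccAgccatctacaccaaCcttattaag
Klk1b26 differed from Klk1b21 at 15 of these 60 bases and Klk1 at 12, while Klk1b22, Klk1b24 and Klk1b27 each differed at 5. Counted over all 50-base windows of the transcripts, 33.9% of those of Klk1b24, 29.08% of Klk1b21 and 28.4% of Klk1 occur unchanged in another gene. The shares were 15.03% for Klk1b26, 14.29% for Klk1b27 and 13.28% for Klk1b22. With 100-base windows they ranged from 0.0% (Klk1b22) to 6.082% (Klk1). Neither the read length nor the treatment of reads with several matches is known from the sources used here, so the split of a level between these genes is uncertain, more so for Klk1b24, Klk1b21 and Klk1 than for the other members.

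Values are FPKM, fragments scaled to transcript length and library size, as the authors deposited them with 2 decimals, and differences between groups are differences of mean log2(FPKM + 1), a measure that makes the change of rows near 0 look smaller than it is. The FPKM of a library summed to 289707 to 297362 in spermatocytes and to 194949 to 206711 in GC2 cells. From the spacing of the low values, spermatocyte depth was estimated in megafragments, at 15.7 to 16.7 in the controls and at 15.04, 10.93 and 16.13 in knockout replicates 1, 2 and 3, so replicate 2 was the shallowest. Phb, the targeted gene, was listed at 56.62, 53.99 and 52.36 FPKM in control GC2 cells and 22.66, 18.37 and 19.02 in knockdown cells (log2 difference -1.40, limma adjusted p = 0.00062). In spermatocytes Phb was at 12.6, 13.35 and 13.86 in controls and 11.81, 11.33 and 11.53 in knockout libraries (-0.18, limma adjusted p = 0.0074). The spermatocyte call for Phb was lost under quantile normalization (-0.07, adjusted p = 0.17) and median centring (-0.02, adjusted p = 0.63).

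The kallikrein genes were near 0 in control spermatocytes and well above 0 in the knockout libraries for 5 of the 6. Summed over the 6, the level was 1.49, 1.45 and 2.20 FPKM in the controls and 86.1, 90.98 and 83.06 FPKM in the knockout libraries. The means were 1.71 ± 0.422 and 86.7 ± 3.995 FPKM (SD, n = 3), a ratio of 50.6 and a difference of 5.02 on the log2 scale. The controls' sum stands for an estimated 21.9 to 34.3 fragments per library over all 6 genes, and that of the knockout libraries for 874.1 to 1178.4. These estimates cover counting error only, and they mean that the control levels of single members rest on a handful of fragments.

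Klk1b21, whose product is known to cleave fibronectin and IGF-binding protein 3, had the highest level of the 6. It was listed at 0.43, 0.31 and 0.47 FPKM in control replicates 1, 2 and 3 and at 33.52, 35.82 and 33.34 FPKM in knockout replicates 1, 2 and 3. The groups were far apart and the knockout libraries close to each other. The means were 0.403 ± 0.0833 and 34.2 ± 1.38 FPKM (SD, n = 3), a log2 difference of 4.65. Ordered from the most positive difference down, it ranked 2 among the 15957 rows tested. Klk1b21 made up 39.5% ± 0.611 (SD, n = 3) of the summed level in the knockout libraries.

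Klk1b24 came next. It was at 0.24, 0.0 and 0.64 FPKM in the controls, with control replicate 2 listed at 0, and at 26.17, 25.15 and 23.41 FPKM in the knockout libraries. No knockout library came near the controls, which varied as much as their own mean (0.293 ± 0.323 FPKM, SD, n = 3). The knockout mean was 24.9 ± 1.40 FPKM (SD, n = 3), the log2 difference 4.35 (rank 3), and the share of the summed level 28.7% ± 1.46 (SD, n = 3). An estimated 241.3 to 345.5 fragments stood behind each knockout value, against 0 to 9.0 in the controls.

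Klk1b27, another protease described in Leydig cells, was at 0.15, 0.34 and 0.14 FPKM in the controls and at 17.11, 18.14 and 16.92 FPKM in the knockout libraries. Its groups were also far apart, though by less than those of Klk1b21. The means were 0.21 ± 0.113 and 17.39 ± 0.656 FPKM (SD, n = 3), with a log2 difference of 3.93 (rank 7) and a share of 20.1% ± 0.271. The level of Klk1b21 was 1.96 to 1.97 times that of Klk1b27 in the 3 knockout libraries, a steadier ratio than that of Klk1b21 to Klk1b24 (1.28 to 1.42) or of Klk1b24 to Klk1b27 (1.38 to 1.53).

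Klk1b22, whose product is known as a binding protein of epidermal growth factor, was lower. It was at 0.08, 0.0 and 0.30 FPKM in the controls and at 5.76, 8.08 and 5.36 FPKM in the knockout libraries. Knockout replicate 2, the shallowest library, was the highest of the 3, though the groups did not overlap. The means were 0.127 ± 0.155 and 6.4 ± 1.47 FPKM (SD, n = 3), a log2 difference of 2.71 (rank 26) and a share of 7.34% ± 1.34.

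Klk1, the kininogenase, showed the smallest difference of the 5 members with a higher level in the knockout libraries. It was at 0.49, 0.37 and 0.25 FPKM in the controls and at 3.40, 3.67 and 4.03 FPKM in the knockout libraries. The groups did not overlap, and Klk1 stood highest among the members in control replicate 1 but next to last in each knockout library. The means were 0.37 ± 0.12 and 3.7 ± 0.316 FPKM (SD, n = 3), with a log2 difference of 1.78 (rank 271) and a share of 4.28% ± 0.499.

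Klk1b26, known as a prorenin-converting enzyme, was the exception. It was at 0.10, 0.43 and 0.40 FPKM in the controls and at 0.14, 0.12 and 0.0 FPKM in the knockout libraries. Its groups overlapped, and it did not reach the filter of 1 FPKM in 3 libraries. The means were 0.31 ± 0.182 and 0.0867 ± 0.0757 FPKM (SD, n = 3), a log2 difference of -0.26. In the controls its level was of the same order as that of the others, while in the knockout libraries it was last.

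**Figure D2:**
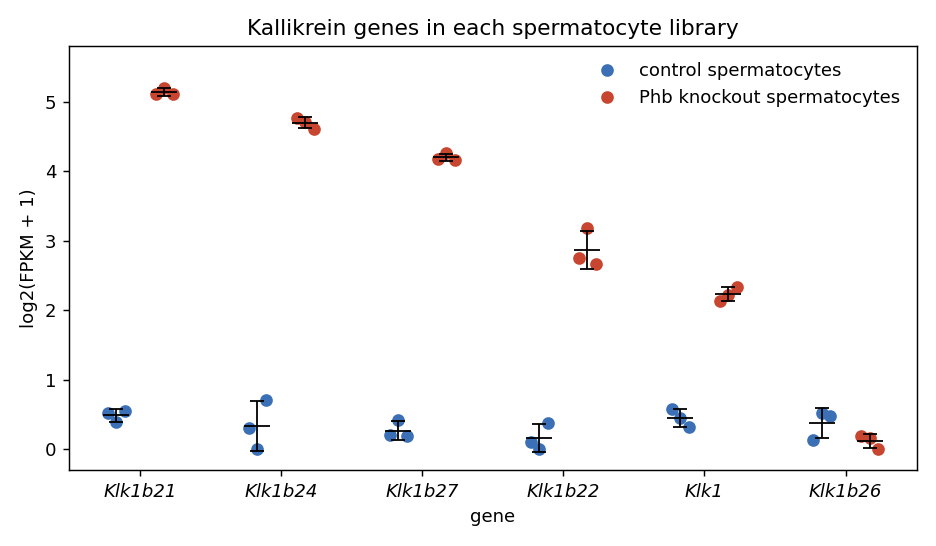
Level of each kallikrein gene as log2(FPKM + 1) in the 3 control (blue) and 3 Phb knockout (red) spermatocyte libraries, with the group mean and SD as black bars. The controls of all 6 genes lie at or below 0.64 FPKM, and the knockout libraries step down from Klk1b21 (33.34 to 35.82 FPKM) to Klk1 (3.40 to 4.03 FPKM), with Klk1b26 not above its controls.

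Side by side, the knockout libraries gave 1 order in each replicate: Klk1b21, Klk1b24, Klk1b27, Klk1b22, Klk1, Klk1b26. No neighbouring pair in that order overlapped between libraries. The controls gave no such order: all values lay between 0 and 0.64 FPKM, and the order of the genes differed between the 3 libraries. Klk1b21, Klk1b24 and Klk1b27 made up 86.95% to 89.2% of the summed level in the knockout libraries and 44.8% to 56.8% in the controls. These 3 were set apart for their high levels in the knockout libraries, so a large share there was built in. All 5 members other than Klk1b26 passed the filter on low values, and only through the knockout libraries, so a difference was built into their passing. In these 5 each knockout library was above each control library, as in 42.2% of all rows tested. A log2 difference of at least 2 was reached by Klk1b21, Klk1b22, Klk1b24 and Klk1b27, and by 0.664% of rows tested. The members were chosen on this contrast, so nothing is read from these counts.

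In GC2 cells the kallikreins were at or near 0 in both groups. Klk1 was listed at 0 in all 3 controls and at 0, 0 and 0.02 FPKM in knockdown replicates 1, 2 and 3. Klk1b24 was at 0, 0.13 and 0.02 FPKM in the controls and at 0, 0.05 and 0 in the knockdown cells. The groups overlapped for both genes, whereas 19.6% of the 10791 rows tested had every knockdown library above every control library. Neither gene reached the filter, so no difference was detectable at this depth, which is not known for these libraries. Klk1b21, Klk1b22, Klk1b26 and Klk1b27 were not analysed in GC2 cells. The spermatocyte and GC2 tables hold different sets of rows and were not tested against each other.

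The other kallikreins of the cluster were mostly low. Of 20 further Klk genes listed, 15 had a row in the spermatocyte tables and 4 were tested. Klk1b1 was listed at 0 in all controls and at 1.20, 1.54 and 1.57 FPKM in the knockout libraries (limma adjusted p = 9.5e-06). Klk1b16, the nearest relative of Klk1b26 by coding sequence, was at 0, 0 and 0.05 FPKM and at 1.17, 1.11 and 1.24 FPKM (limma adjusted p = 3.7e-06). Both passed the filter only through the knockout libraries, and both stood well under the 3 leading members. These 2 of 4 called higher compare with 40.9% of the 15957 rows tested. The other 2 were not called, so 0 of 4 were called lower, against 38.5% of rows. Under quantile normalization the balance of all calls was 8218 higher and 5041 lower, in place of 6533 and 6139.

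Klk1b8 was at 3.25, 2.35 and 2.65 FPKM in the controls and 2.63, 2.86 and 2.41 FPKM in the knockout libraries, with overlapping groups (log2 difference -0.04, limma adjusted p = 0.73). In control spermatocytes it was the highest of the subfamily, above any member, and in the knockout libraries it stood below Klk1. Klk8, a kallikrein known from the brain and skin and placed outside the Klk1 subfamily, was at 1.31, 1.06 and 1.48 and at 1.10, 1.05 and 1.21 FPKM (-0.10, limma adjusted p = 0.28), and it was called higher under quantile normalization (0.47, adjusted p = 0.0079). Klk1b9, which was not tested, went from 0.56, 0.49 and 1.01 FPKM to 0 in all 3 knockout libraries. Klk1b3, also untested, went from 0.24, 0.19 and 0.20 FPKM to 0 in all 3. Klk1b9, Klk1b3 and Klk1b26, and Klk1b8 within its spread, thus had lower means in the knockout libraries, unlike the 5 higher members. Klk1b4, Klk1b11, Klk5, Klk6 and Klk15 were not analysed here. Summed over all 14 rows of the Klk1 subfamily, pseudogenes included, the level was 6.08, 4.56 and 6.22 FPKM in the controls and 91.37, 96.58 and 88.28 FPKM in the knockout libraries.

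On the far side of Klk1, 192 bases from its end, lies 1700028J19Rik on the minus strand. It was at 99.94, 103.13 and 103.98 FPKM in the controls and at 1.27, 0.59 and 0.94 FPKM in the knockout libraries. Its log2 difference was -5.76 (limma adjusted p = 1.4e-07), opposite in sign to that of Klk1 beside it. On the other side, 4656 bases before Klk1, Klk1b5 was at 0 in the controls and at 0.22, 0.09 and 0 FPKM in the knockout libraries. The other direct neighbours of the members are pseudogenes and 1 unclassified transcript, of which only Gm44779 had a row, with means of 0.0133 and 0 FPKM.

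**Figure D3:**
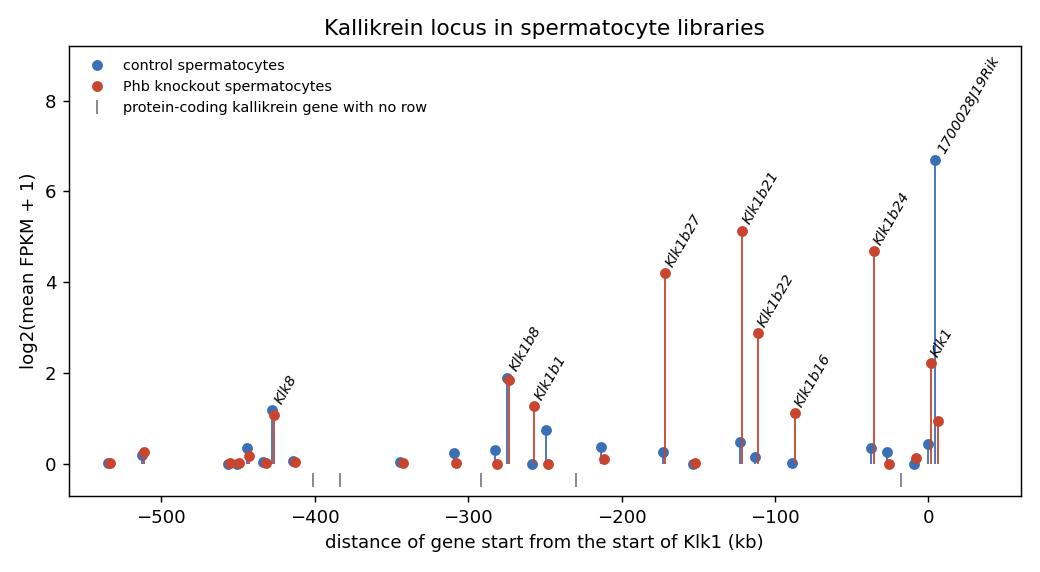
Mean level, as log2(mean FPKM + 1), of the kallikrein genes on chromosome 7 and of 1700028J19Rik against the distance of each gene's start from that of Klk1 in kilobases, for control (blue) and Phb knockout (red, drawn slightly to the right) spermatocytes. The members other than Klk1b26 stand up in red, and Klk1b1 and Klk1b16 do so less (means of 1.44 and 1.17 FPKM). Klk1b8 and Klk8 are level between the groups, most other kallikrein genes are near 0, and 1700028J19Rik (102 against 0.933 FPKM) is high only in blue.

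Of 12 listed genes of the kinin system, in which Klk1 acts, with a row, 6 were tested in spermatocytes and 3 were called higher and 3 lower, with a median log2 difference of -0.10 against 0.05 over all rows tested. These counts are near the 40.9% of rows called higher and 38.5% called lower. Kng1, a kininogen gene, was at 0, 0.05 and 0 FPKM in the controls and 0, 0.03 and 0 in the knockout libraries. Kng1 thus stayed near 0 where Klk1 was at 3.7 FPKM. Kng2, another kininogen gene of the list, was not analysed in spermatocytes. Of the kinin receptors, Bdkrb2 was at 1.28, 1.14 and 1.30 FPKM against 0.43, 0.40 and 0.28 FPKM (-0.71, limma adjusted p = 9.1e-05), a call that quantile normalization turned to 0.08 (adjusted p = 0.31), and it passed the filter only through the controls. Bdkrb1 was below the filter, at 0.27, 0.23 and 0.34 FPKM against 0.05, 0 and 0.09 FPKM.

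Enzymes that degrade kinins moved both ways. Ace, the angiotensin-converting enzyme, which also inactivates bradykinin, fell from 11.15, 10.97 and 11.01 FPKM to 3.15, 2.86 and 2.78 FPKM (-1.62, limma adjusted p = 4.6e-07). Cpn1, the catalytic subunit of carboxypeptidase N, fell from 2.90, 2.43 and 2.90 FPKM to 0.23, 0.22 and 0.17 FPKM (-1.63, limma adjusted p = 2.3e-06), and it too passed the filter only through the controls, so that a difference was built into its passing. Mme, neprilysin, rose from 1.59, 1.68 and 1.60 FPKM to 5.13, 5.72 and 6.04 FPKM (1.34, limma adjusted p = 4e-06), and Ece1, endothelin-converting enzyme, rose from a mean of 9.91 to 20.3 FPKM (0.97, limma adjusted p = 4.1e-06). In GC2 cells 2 genes of this list were tested, Cpd and Ece1, and limma called 0 of them, with 1 lower at an unadjusted p under 0.05, against 10.7% of 10791 rows called higher and 13.9% called lower. The GC2 balance of all calls, 1153 higher and 1496 lower, was 1484 and 1102 on a TPM scale.

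Inhibitors of serine proteases were higher in 9 of the 12 genes tested in spermatocytes and lower in 2, with a median log2 difference of 1.37, where 40.9% of all rows were called higher and 38.5% lower. Serpina5, the protein C inhibitor, which binds tissue kallikreins, rose from 21.34, 22.69 and 20.97 FPKM to 119.8, 121.12 and 121.32 FPKM (2.43, limma adjusted p = 2.7e-08), so it stood above the summed kallikreins in every knockout library. Serpina3n, of the antichymotrypsin family, was at 0.10, 0 and 0.05 FPKM in the controls and at 9.44, 8.95 and 9.11 FPKM in the knockout libraries (3.28, limma adjusted p = 4.9e-08). Serpina3g went from 0.40, 0.32 and 0.44 FPKM to 8.97, 10.73 and 9.47 FPKM (2.95, limma adjusted p = 2.7e-07). Like the members, Serpina3n and Serpina3g passed the filter only through the knockout libraries, as did Serpina3c, also counted among the higher. In GC2 cells Serpina3g shares a row with Serpina3f, Serpina3h and Serpina3i, and that row went the other way, from 4.78, 3.71 and 4.32 FPKM to 0.48, 0.71 and 0.69 FPKM (-1.69, limma adjusted p = 0.00059), passing the filter only through the controls. Serpine2, protease nexin, rose from a mean of 6.50 to 19.3 FPKM (1.44, limma adjusted p = 1.8e-07). Spink2, an inhibitor made by germ cells, fell from 239.21, 158.06 and 166.5 FPKM to 0.58, 0.60 and 0.93 FPKM (-6.77, limma adjusted p = 2.7e-07), and passed the filter only through the controls.

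Of the proteins that these proteases are known to cut, and growth factors linked to them, 6 of the 8 tested were higher and 1 lower, with a median log2 difference of 0.53, against 40.9% and 38.5% of all rows. Tgfb2, counted among the higher, passed the filter only through the knockout libraries. Igfbp3, the binding protein of insulin-like growth factors that the Klk1b21 product cleaves, rose from 8.36, 8.16 and 8.52 FPKM to 40.14, 41.01 and 41.4 FPKM (2.16, limma adjusted p = 2.3e-08). Fn1, fibronectin, was at 10.89, 10.23 and 10.36 FPKM and at 9.74, 10.27 and 9.57 FPKM, with overlapping groups (-0.08, limma adjusted p = 0.11). Igf2, the 1 gene called lower, went from a mean of 3.79 to 2.11 FPKM (-0.65, limma adjusted p = 0.015), and quantile normalization ended that call (-0.37, adjusted p = 0.075). Egf, the epidermal growth factor, stayed below the filter, at no more than 0.39 FPKM. In GC2 cells 4 of the 8 tested were called lower, against 13.9% of all rows, Igfbp3 among them (-0.73, limma adjusted p = 0.0033). Igf2, also called lower there, passed the filter only through the controls.

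Most markers of Leydig cells that were tested were higher in the knockout libraries, by amounts that differed widely. Of 20 listed, all had a row, 17 were tested, 16 were called higher and 1 lower (Srd5a1, -0.53, limma adjusted p = 0.0014, not called under quantile normalization), with a median log2 difference of 1.82, against 40.9% of all rows called higher and 38.5% lower. None of the 20 was at 0 in every control. Their summed level was 284 to 313 FPKM in the controls and 1262 to 1276 FPKM in the knockout libraries, most of it from Inha, which Sertoli cells also express, Gstm2 and Aldh1a1. Hsd3b6, the 3-beta-hydroxysteroid dehydrogenase of adult Leydig cells, was at 0.28, 0.29 and 0.42 FPKM in the controls and at 22.21, 25.36 and 23.53 FPKM in the knockout libraries (4.21, limma adjusted p = 4.5e-08). Hsd3b6 and Sult1e1 passed the filter only through the knockout libraries, so a difference was built into their passing. Cyp17a1, which makes androgen precursors, went from 2.76, 2.99 and 2.33 FPKM to 39.11, 41.14 and 38.4 FPKM (3.46, limma adjusted p = 1.2e-07). Insl3, the Leydig cell hormone, shares its row with Jak3, and that row went from 3.16, 3.04 and 3.11 FPKM to 84.79, 82.28 and 80.33 FPKM (4.35, limma adjusted p = 7e-09). Star, which brings cholesterol into mitochondria, rose less, from a mean of 4.32 to 12.8 FPKM (1.38, limma adjusted p = 2.7e-07).

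The ratio of the summed kallikreins to these markers differed from marker to marker. To Hsd3b6 it was 5.0 to 5.32 in the controls and 3.53 to 3.88 in the knockout libraries. To Sult1e1, estrogen sulfotransferase, another gene near 0 in the controls, it was 11 to 29 and 10.4 to 12.3. To Cyp17a1 it was 0.485 to 0.944 and 2.16 to 2.21, and to Star 0.336 to 0.495 and 6.52 to 6.96. In the knockout libraries the ratio to Hsd3b6 was thus lower than in any control, that to Sult1e1 overlapped the controls, and those to Cyp17a1 and Star were higher than in any control. All control ratios rest on the low kallikrein sum, and those to Hsd3b6 and Sult1e1 also on a marker near 0, so they are imprecise. In GC2 cells Hsd3b6 and Cyp17a1 reached at most 0.02 FPKM. The part that the Leydig cell markers have in the kallikrein values was not tested.

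Markers of other cell types also moved, to be read against the same 40.9% of all rows called higher and 38.5% called lower. Of 20 Sertoli cell markers 18 were higher (median 1.82), with summed levels of 927 to 1012 FPKM in the controls and 3826 to 3990 FPKM in the knockout libraries, and the summed kallikreins were 0.0222 to 0.0338 and 0.268 to 0.299 times the Sertoli gene Cldn11. Of 12 peritubular myoid and endothelial markers tested 11 were higher (median 0.59), of 12 immune cell markers 10 (median 0.61), and of 4 erythrocyte rows 4 (median 0.85). All 16 markers of pachytene and diplotene spermatocytes were lower (median -4.91), with Ldhc, the germ cell lactate dehydrogenase, at 1416 to 1437 FPKM in the controls and 4.79 to 6.05 FPKM in the knockout libraries. The libraries labelled as knockout spermatocytes thus held little RNA of most of these pachytene and diplotene markers, though Hspa2 was at 30.04 to 31.45 FPKM there. No list of earlier spermatocyte stages was examined. Spermatid markers were lower in 14 of 14 (median -3.93), and in 13 of 14 under quantile normalization and median centring. Several rows of both lists passed the filter only through the controls, among them Tdrd6, Adam3, Cetn1, Prm2 and Akap4. The immune marker Aif1 did so too, while Tsx, Vwf, Emcn, Csf1r and H2-Aa passed it only through the knockout libraries. A difference was built into the passing of all such rows. Of 15 spermatogonia markers 8 were lower and 3 higher, and under median centring 2 were lower and 6 higher. In such bulk libraries, fewer cells of a type and less RNA per cell cannot be told apart. The part of these markers in the kallikrein values was not tested either.

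**Figure D4:**
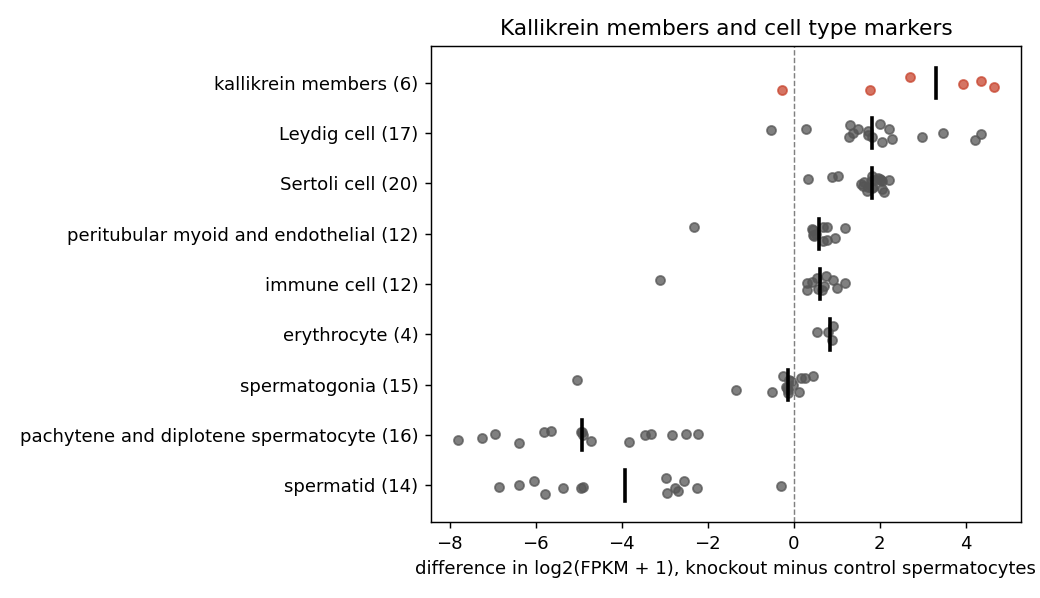
Difference between knockout and control spermatocytes on the log2(FPKM + 1) scale for the 6 kallikrein genes (red, shown without a test) and for the tested genes of 8 cell type lists (grey), with the number of genes in brackets and the median as a black bar. Klk1b21, Klk1b24 and Klk1b27 lie at the upper end with the 2 highest Leydig cell genes, the Jak3;Insl3 row and Hsd3b6, and the medians of the spermatocyte (-4.91) and spermatid (-3.93) lists lie far below 0.

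The summed kallikreins were compared with 7209 rows that had 1 gene name and a mean of at least 5 FPKM. Members and rows with clone, Gm or Rik names were left out. Over the 6 spermatocyte libraries, the 8 closest of the rows compared were Lcn2, Hsd3b6, Agt, Ptgds, Apoc1, Cyp17a1, Cxcl1 and Vcam1. Rows with several names, such as that of Jak3 and Insl3, were also left out, and some may lie nearer. Likeness was the Euclidean distance between log2(FPKM + 1) values, each centred on its own mean, and was 0.549 for Lcn2 and 1.01 for Hsd3b6, up to 2.48 for Vcam1. Lcn2, which encodes lipocalin 2, was at 1.58, 1.51 and 1.49 FPKM in the controls and 63.65, 63.58 and 63.22 FPKM in the knockout libraries. Agt, angiotensinogen, had means of 3.16 and 68.6 FPKM, and Ptgds, prostaglandin D synthase, of 4.59 and 76.1 FPKM. Cxcl1, a chemokine, and Vcam1, an adhesion molecule, had means of 5.99 and 61.65 FPKM and of 0.357 and 10.05 FPKM. The distance is dominated by the contrast on which the members were chosen, and is given as a description over 6 libraries.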

How the data were processed

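RNA was measured in 12 libraries, 3 in each of 4 groups, prepared with a directional kit per the labels' protocols. The authors deposited FPKM values with 2 decimals. The submitters' processing notes name HISAT2 2.1.0, DESeq and the builds GRCm38 and mm10. Not given in the sources used here are the quantifier, its annotation and its filters. Within spermatocytes and within GC2 cells, rows of at least 1 FPKM in at least 3 of the 6 libraries were compared on log2(FPKM + 1) with limma 3.58.1 (empirical Bayes with trend, two-sided, Benjamini-Hochberg over all rows tested, called under 0.05) in R 4.3.3, after a test on simulated data. Rows without a gene name (1200 of 25911 in GC2, 164 of 36987 in spermatocyte tables) were left out of the fit.

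Fragments were estimated from the step between low FPKM values of rows with 1500 to 3000 bases. Sequences came from RefSeq (GRCm38.p6) and GENCODE M21 and were aligned with MAFFT 7.526. The members and the gene lists were chosen with earlier results of these data known. Named are the members, Phb, other Klk rows with a mean of at least 1 FPKM in a group, up to 4 called genes of smallest adjusted p per list, the most abundant marker of a list, the 8 rows nearest in pattern and the members' neighbours, plus list genes added for their role after the values were seen (Bdkrb2, Kng1, Fn1, Star and others). Alternatives were a pseudocount of 0.1, no filter, quantile normalization, median centring, a TPM scale, a replicate block and each library left out.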

Additional observations from a re-analysis of the deposited data

How the results depend on the processing

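The summed kallikreins differed by 5.02 (log2) between knockout and control spermatocytes. The difference was 5.605 with a pseudocount of 0.1, 5.311 after quantile normalization, 5.352 after median centring, 5.442 on a TPM scale and 4.957 to 5.149 with 1 library left out. Summed over all Klk1 subfamily rows, an alternative chosen after seeing the data, it was 3.822. Over 13 alternatives Klk1b21 ranged from 4.602 to 6.105, Klk1b24 from 4.182 to 6.414, Klk1b27 from 3.888 to 5.876, Klk1b22 from 2.55 to 5.05 and Klk1 from 1.716 to 3.044, and Klk1b26 was below 0 in each (-1.109 to -0.1019). Of these alternatives, leaving out the filter, the replicate block and summing rows of the same name could not move a member's value. Rows called in spermatocytes were 6276 to 6330 higher and 5947 to 6020 lower with 1 library left out, and in GC2 cells 744 to 962 and 1034 to 1296, with 750 higher without knockdown replicate 2 and 744 without knockdown replicate 3, against 1153. Quantile normalization moved the median difference of all spermatocyte rows from 0.05 to 0.28 and median centring to 0.21. Of 756 values for 63 named genes under these alternatives, 750 kept their call, and their direction where the gene was called in the main fit. The direction of genes not called was not compared. The exceptions were Phb, Igf2, Srd5a1 and Klk8, whose calls changed with the scaling, and Bdkrb2, which went from -0.71 to 0.077 under quantile normalization, and the cause was not tested. Same-numbered libraries did not deviate together in spermatocytes (r = -0.054 to 0.0074). In GC2 cells they deviated together weakly (0.061 to 0.124, each library correlating best with its own number, a hint only). Whether the numbers pair the GC2 samples cannot be told from these values, and the main fit used no pairing. With a replicate block 6427 rows were higher and 6055 lower in spermatocytes, and 853 and 1132 in GC2 cells. The block could not move the difference of the summed kallikreins, which stayed at 5.025. FPKM tables without counts leave the precision of the near-zero control values unknown beyond the estimated fragments.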
